A study of Mus musculus with 3 samples.

Results

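The 5 granule protein genes Elane, Prtn3, Ctsg, Mpo and Prg2 were followed in RNA sequencing libraries of macrophages sorted from the spleens of leukemic mice. They are 5 of the 17615 genes listed in any library and were located by their NCBI gene IDs. They were chosen by their FPKM in these same 3 libraries, above all by the difference between mM-CSF and control, so those values are given as a description. The mice were C57BL/6J animals of 6 to 8 weeks with an acute myeloid leukemia from transplanted cells that carry GFP and BFP, at 800000 cells per mouse and without irradiation. The transplanted cells carried mM-CSF at a high level in the first group, sM-CSF at a high level in the second, and neither in the control. The labels do not spell out these prefixes and give neither the driver of the leukemia nor the vector. M-CSF, the product of Csf1, maintains macrophages through the receptor CD115 and occurs in membrane-bound and soluble forms. Spleen cells without GR1, with intermediate CD115 and with F4/80 were sorted on day 18. Each group has 1 library, so no difference between groups has a replicate check or a test, and no label says how many mice went into a library.

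Neutrophils and their precursors carry several kinds of granules that form one after the other. Primary, or azurophil, granules are filled at the promyelocyte stage, when Elane, Prtn3, Ctsg and Mpo are transcribed strongly, and their transcripts decline as the cells mature. The 3 serine proteases among them are made as inactive precursors, are activated by the dipeptidyl peptidase encoded by Ctsc, and are held on the proteoglycan serglycin, the product of Srgn. Macrophages of the spleen are not known as a major source of these proteins. Prg2 encodes the major basic protein, which is known from eosinophil granules rather than from neutrophil primary granules, so that the name primary granule proteins covers 4 of the 5 genes.

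The libraries held 8.57e+06 (mM-CSF), 8.94e+06 (sM-CSF) and 9.09e+06 (control) estimated counts. The genes of the sort were present, with the CD115 gene Csf1r at 222, 149 and 268 FPKM and the F4/80 gene Adgre1 at 67.5, 65.5 and 101 FPKM in the mM-CSF, sM-CSF and control libraries. FPKM is a level per gene length and library size, as deposited. A gene was called higher or lower if log2(FPKM + 1) differed by at least 1, which is 2-fold, with at least 5 FPKM in the higher library. This scale understates the change of low genes. Intervals are 95% intervals from the counts, which cover counting error only and say nothing about the spread between mice.

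The stretches in front of the start sites are shown because the genes were all highest in the same library and because the factors that drive them at the promyelocyte stage (PU.1, MYB, C/EBP and RUNX factors) are known. RefSeq sequences of the GRCm38.p6 build were at hand for 4 of the 5 genes. Each line gives the 250 bases before the annotated start, 5′ to 3′ on the strand of the gene, with matches on either strand in capitals. The motifs were GAGGAA (PU.1 and other ETS factors), AACNG (MYB), GCAAT (part of a C/EBP site), TGTGGT (RUNX) and TATAA (TATA box), chosen with these sequences in view, and no 2 matches overlapped. Elane lies at chr10:79886062-79886311 on the plus strand, Prtn3 at chr10:79879417-79879666 on the plus strand, Ctsg at chr14:56102575-56102824 on the minus strand and Mpo at chr11:87793534-87793783 on the plus strand.
Elane: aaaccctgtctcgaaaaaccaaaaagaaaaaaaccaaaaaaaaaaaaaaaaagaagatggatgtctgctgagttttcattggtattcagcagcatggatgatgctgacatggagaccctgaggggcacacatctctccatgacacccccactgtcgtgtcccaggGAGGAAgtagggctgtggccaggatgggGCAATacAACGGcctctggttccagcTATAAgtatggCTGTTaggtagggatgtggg
Prtn3: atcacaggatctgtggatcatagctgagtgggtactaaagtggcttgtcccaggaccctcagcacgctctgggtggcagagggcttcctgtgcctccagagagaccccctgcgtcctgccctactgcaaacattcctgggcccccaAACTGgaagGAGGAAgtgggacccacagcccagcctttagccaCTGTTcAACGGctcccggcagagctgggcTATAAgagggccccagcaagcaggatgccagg
Ctsg: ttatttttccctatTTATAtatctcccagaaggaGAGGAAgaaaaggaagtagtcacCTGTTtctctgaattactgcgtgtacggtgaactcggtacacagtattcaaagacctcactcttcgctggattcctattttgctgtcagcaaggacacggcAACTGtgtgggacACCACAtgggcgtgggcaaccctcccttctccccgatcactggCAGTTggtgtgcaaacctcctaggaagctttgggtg
Mpo: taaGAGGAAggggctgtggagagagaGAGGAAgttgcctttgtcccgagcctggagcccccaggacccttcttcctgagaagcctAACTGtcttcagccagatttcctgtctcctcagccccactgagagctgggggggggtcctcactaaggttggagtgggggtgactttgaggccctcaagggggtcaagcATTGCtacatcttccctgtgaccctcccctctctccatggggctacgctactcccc

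The adjacent genes Elane and Prtn3 shared 3 matches that stood in one order, first the PU.1 letters, then MYB, then the TATA box. GAGGAA began at position -85 in Elane and -95 in Prtn3, counted from the start site, AACGG at -50 and -55, and TATAA at -31 and -32. The other matches differed between them: Elane also held GCAAT at -57 and the MYB letters on the opposite strand at -20, and Prtn3 held the MYB letters at -104 and, on the opposite strand, at -61. Ctsg held GAGGAA at -216 and the RUNX letters on the opposite strand at -79. Mpo held GAGGAA at -247 and -224 and the C/EBP letters on the opposite strand at -56. GAGGAA was thus present in all 4 stretches. Among all 32851 stretches of this length in the table, 23.3% held GAGGAA, 74.2% AACNG, 23.1% GCAAT, 14.05% TGTGGT and 22.8% TATAA. These matches are letters in a window, and binding was not measured.

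All 5 genes were highest in mM-CSF macrophages. Their summed level was 901 FPKM in mM-CSF macrophages, 185 FPKM in sM-CSF macrophages and 167 FPKM in control macrophages. As a share of all counts they made up 0.111% in mM-CSF macrophages, 0.0273% in sM-CSF macrophages and 0.0259% in control macrophages. By the 2-fold rule all 5 were higher in mM-CSF macrophages than in control macrophages, where 8.97% of 9789 genes tested were higher and 15.1% lower. Since these values chose the genes, nothing is read from that count. The median difference was 2.80 for the 5 genes and -0.05 for all genes tested. In bulk RNA more cells that hold a transcript and more transcript per cell cannot be told apart.

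Elane (NCBI gene 50701), which encodes neutrophil elastase, was at 397 FPKM in mM-CSF macrophages, 51.7 FPKM in sM-CSF macrophages and 54.5 FPKM in control macrophages. The 3074, 416 and 445 counts behind these values give a 7.32-fold higher share of counts in mM-CSF than in control macrophages (6.63 to 8.11). The sM-CSF and control libraries lay within counting error of each other, at a ratio of sM-CSF to control of 0.95 (0.829 to 1.09). Prtn3 (gene 19152), for proteinase 3, was at 158 FPKM in mM-CSF macrophages, 28.65 FPKM in sM-CSF macrophages and 18.75 FPKM in control macrophages. Here the order was mM-CSF, sM-CSF, control, with a share 8.46-fold higher in mM-CSF than in control macrophages (7.18 to 10.0) and 1.53-fold higher in sM-CSF than in control macrophages (1.25 to 1.88). The difference between sM-CSF and control, 0.59 on the log2 scale, is short of 2-fold.

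Ctsg (gene 13035), for cathepsin G, a chymotrypsin-like protease, was at 92.3 FPKM in mM-CSF macrophages, 17.2 FPKM in sM-CSF macrophages and 18.8 FPKM in control macrophages. It had a 4.94-fold higher share in mM-CSF than in control macrophages (4.18 to 5.87), and the interval of the ratio of sM-CSF to control, 0.730 to 1.15, included 1. Mpo (gene 17523), for myeloperoxidase, the heme enzyme that makes hypochlorous acid, was at 166 FPKM in mM-CSF macrophages, 62.3 FPKM in sM-CSF macrophages and 63.5 FPKM in control macrophages. It had the smallest ratio of the 5, with a share 2.63-fold higher in mM-CSF than in control macrophages (2.48 to 2.80). It rests on the most counts, 3694 in mM-CSF macrophages, 1437 in sM-CSF macrophages and 1487 in control macrophages. The ratio of sM-CSF to control was 0.982 (0.913 to 1.06).

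Prg2 (gene 19074) was at 88.5 FPKM in mM-CSF macrophages, 25.6 FPKM in sM-CSF macrophages and 11.9 FPKM in control macrophages. Like Prtn3 it took an intermediate value in sM-CSF macrophages. Its share of counts was 7.49-fold higher in mM-CSF than in control macrophages (5.99 to 9.48) and 2.16-fold higher in sM-CSF than in control macrophages (1.67 to 2.82). With 88 counts in control macrophages, it has the widest interval. In the sM-CSF library Prg2 was the 1 gene of 5 past the 2-fold rule against the control, at 1.05 on the log2 scale, where 0.785% of 9683 genes tested were higher and 1.63% lower. It fell short of the rule, at 0.80, once the trend with gene length described further on was removed, a setting with 0.485% of genes higher. In that setting the difference between sM-CSF and control was 0.36 for Prtn3, -0.31 for Elane, -0.35 for Ctsg and -0.06 for Mpo. By the 2-fold rule no gene of the 5 was lower in either comparison with the control.

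**Figure D1:**
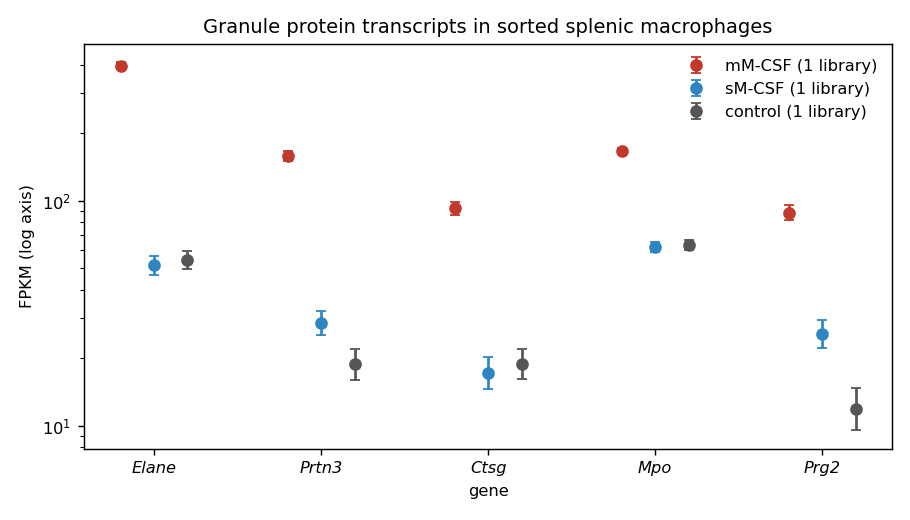
Level of each gene in FPKM (log axis) in the mM-CSF, sM-CSF and control libraries, 1 library each; bars are 95% Poisson intervals of the count and cover counting error only. Every gene is highest in mM-CSF macrophages, and Prtn3 and Prg2 lie higher in sM-CSF than in control macrophages.

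Set directly against the sM-CSF library, the mM-CSF library was past 2-fold higher for all 5 genes, where 3.79% of 9574 genes tested were higher and 8.73% lower. The shares of counts were 7.71-fold higher for Elane (6.96 to 8.56), 5.53-fold for Prtn3 (4.82 to 6.36) and 5.40-fold for Ctsg (4.54 to 6.47). They were 3.47-fold higher for Prg2 (2.94 to 4.11) and 2.68-fold for Mpo (2.52 to 2.85). The median difference of the 5 genes was 2.36, against -0.08 for all genes tested. This comparison shares its mM-CSF library with the one before, so the 2 are not separate evidence.

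The order of the 5 genes by FPKM differed between libraries. In the mM-CSF library Elane led, followed by Mpo and Prtn3, whose counting intervals overlapped, and then by Ctsg and Prg2, whose intervals overlapped too. In the sM-CSF library Mpo led, Elane came after it, then Prtn3 and Prg2 with overlapping intervals, and Ctsg was lowest at 17.2 FPKM. In the control library Mpo also led, followed by Elane, by Ctsg and Prtn3 at 18.8 and 18.75 FPKM, and by Prg2.

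Ratios within a library do not depend on how libraries are scaled to each other. Elane stood at 2.39 times the FPKM of Mpo in mM-CSF macrophages (2.27 to 2.50), at 0.830 times in sM-CSF macrophages (0.742 to 0.926) and at 0.858 times in control macrophages (0.770 to 0.955). Prtn3 stood at 0.948 times Mpo in mM-CSF macrophages, 0.460 times in sM-CSF macrophages and 0.295 times in control macrophages, with no overlap between the 3 intervals. Ctsg stood at 0.555 times Mpo in mM-CSF macrophages, against 0.276 times in sM-CSF and 0.296 times in control macrophages. All 3 protease ratios to Mpo were highest in mM-CSF macrophages, before the trend with gene length described further on is taken into account. Relative to Elane, Prtn3 was at 0.397 times in mM-CSF macrophages (0.372 to 0.424), 0.554 times in sM-CSF macrophages (0.472 to 0.650) and 0.344 times in control macrophages (0.286 to 0.412). Prg2 was at 0.223 times Elane in mM-CSF macrophages, 0.496 times in sM-CSF macrophages and 0.218 times in control macrophages, so that its part relative to Elane was alike in the mM-CSF and control libraries and larger in sM-CSF macrophages.

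**Figure D2:**
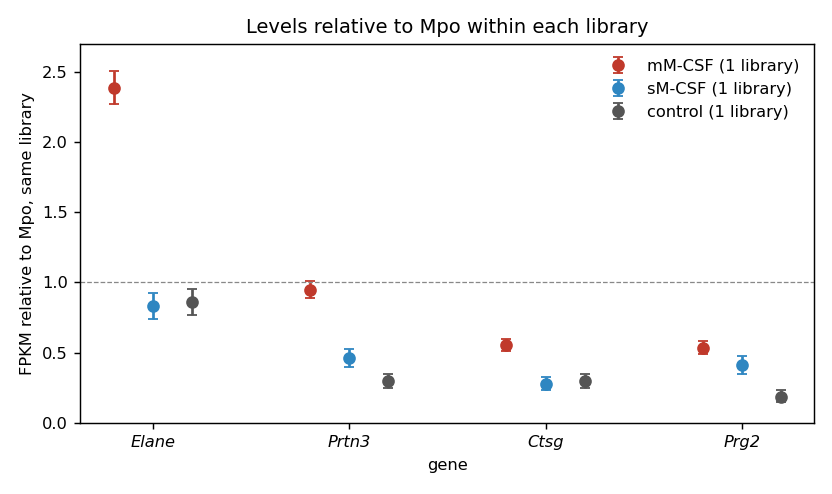
FPKM of Elane, Prtn3, Ctsg and Prg2 divided by that of Mpo in the same library, for the mM-CSF, sM-CSF and control libraries (1 each); bars are exact 95% intervals for counting error and the dashed line marks equal levels. Elane lies above Mpo in mM-CSF macrophages, at 2.39, and below it in the other libraries.

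The difference between the mM-CSF and control libraries ran along gene length, and 4 of the 5 genes are short. Prg2, Elane, Prtn3 and Ctsg have listed lengths of 838, 920, 983 and 1015 bases, and Mpo has 2570. The running median of all genes at these lengths was 0.92 for Prg2, 0.87 for Elane, 0.84 for Prtn3 and 0.82 for Ctsg, but -0.01 for Mpo. With this median subtracted, the differences between the mM-CSF and control libraries were 2.17 for Prtn3, 1.97 for Elane, 1.88 for Prg2, 1.42 for Ctsg and 1.38 for Mpo. Without the subtraction they were 3.01, 2.84, 2.80, 2.24 and 1.37 in the same order. All 5 stayed past 2-fold, where 2.94% of genes tested were higher. Against the sM-CSF library all 5 also stayed past it, the lowest being Prg2 at 1.06, where 1.9% were higher. Among the 333 genes tested from 838 to 1015 bases long, 36% were higher by the 2-fold rule in mM-CSF macrophages and the median difference was 0.86, a window chosen after the values were seen. With the trend removed, Ctsg differed from the control by nearly as much as Mpo (1.42 and 1.38), so that its higher ratio to Mpo in mM-CSF macrophages all but disappeared, while Elane and Prtn3 remained above Mpo at 1.97 and 2.17.

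Scaling mattered for Mpo. With each library rescaled to TPM (each gene's part of the summed FPKM), the median difference of all genes between the mM-CSF and control libraries moved to -0.54 and that of Mpo to 0.92, short of 2-fold, while the other 4 genes stayed past it. The calls over all genes then split into 281 higher and 3406 lower, in place of 878 and 1480, and into 288 and 776 with the length trend removed. Between the sM-CSF and control libraries, 76 higher and 158 lower genes became 98 and 364 on this scale, 45 and 165 with CPM (counts scaled to the library total), and 47 and 175 with the length trend removed. Between mM-CSF and sM-CSF, 363 higher and 836 lower genes became 182 and 2174 on the TPM scale.

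**Figure D3:**
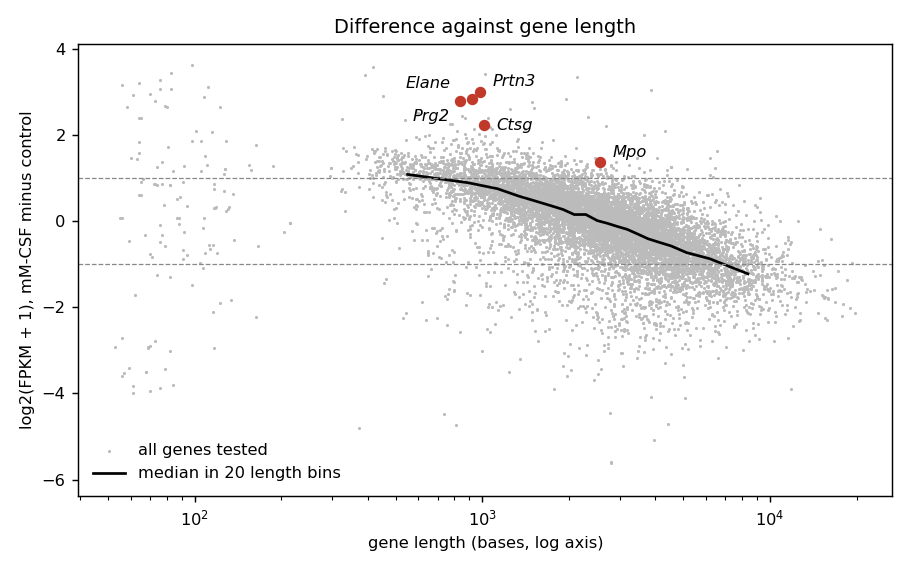
Difference of log2(FPKM + 1), mM-CSF minus control (1 library each), against gene length in bases (log axis) for the genes tested in grey, with the median in 20 length bins as a line, the 2-fold bounds dashed and the 5 granule genes in red. The 5 genes lie above the median line at their length, Mpo by 1.38 and Prtn3 by 2.17.

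Counts of the 5 genes were whole within 0.005 reads in all 3 libraries, and each was listed with 1 transcript. Whole counts were also common among all genes, and how reads that match related genes were treated was not examined. Genes next to them, up to 2 on either side in the GRCm38.p6 gene order, were mostly low or not listed. On chromosome 10, the complement factor D gene Cfd, close to Elane, was at 0.13 FPKM in mM-CSF macrophages, 0.12 FPKM in sM-CSF macrophages and 0 in control macrophages. Plppr3, on the other side of Prtn3, was at 6.18, 7.85 and 6.51 FPKM in the mM-CSF, sM-CSF and control libraries. On chromosome 14, Mcpt8, a basophil protease gene near Ctsg, was at 15.7, 5.97 and 8.97 FPKM in the same order, a difference of 0.74 between mM-CSF and control. Of the 15 genes fixed for the Ctsg and chymase family, 8 were listed and 4 tested, and Ctsg and the chymase gene Cma1 were higher in mM-CSF macrophages than in control macrophages. Cma1 was low, at 7.36 FPKM in mM-CSF macrophages, 3.54 FPKM in sM-CSF macrophages and 3.08 FPKM in control macrophages, and its difference of 1.03 was 0.26 with the length trend removed, so that Ctsg alone of the family stayed past 2-fold. On chromosome 11, Lpo, the peroxidase gene beside Mpo, did not pass 0.07 FPKM in any library. Epx, the eosinophil peroxidase gene, which is not among these neighbours, did not pass 0.86 FPKM. The annotated noncoding gene Gm34064 overlaps Mpo, was not listed in any library, and no source used here says if strand was used in counting.

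Other cargo of primary granules differed in both directions. Of 16 genes on that list 13 were tested between the mM-CSF and control libraries, with 3 higher, 2 lower and a median of 0.01. Once the length trend was subtracted, 1 was higher (Prss57) and 2 lower, and the median was 0.23. Ms4a3, a membrane protein gene of granulocyte and monocyte progenitors, was at 23.0 FPKM in mM-CSF macrophages, 4.29 FPKM in sM-CSF macrophages and 5.90 FPKM in control macrophages, a difference of 1.80 between mM-CSF and control that was 0.98 with the length trend removed. The serine protease gene Prss57 was at 5.24, 2.15 and 1.87 FPKM in the mM-CSF, sM-CSF and control libraries. The properdin gene Cfp was at 483, 267 and 189 FPKM in the same order, with 1.35 between mM-CSF and control and 0.94 once the length trend was removed. The lysozyme genes Lyz2 and Lyz1, whose reads can be shared, were lower in mM-CSF macrophages than in control macrophages, by -1.93 and -1.16. Lyz2 stood at 205 FPKM in mM-CSF macrophages, 282 FPKM in sM-CSF macrophages and 784 FPKM in control macrophages. The lysosomal hydrolase genes Hexa, Gusb, Man2b1, Gaa and Arsa did not pass 2-fold in any comparison.

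Genes that activate, package and sort granule proteases mostly did not pass 2-fold. Of 15 tested, 1 was lower and 0 higher in mM-CSF macrophages than in control macrophages, with a median of -0.05, the value of all genes tested. Ctsc was at 54.2 FPKM in mM-CSF macrophages, 61.3 FPKM in sM-CSF macrophages and 67.8 FPKM in control macrophages. Srgn was at 537, 461 and 484 FPKM in the mM-CSF, sM-CSF and control libraries. The lower gene was Lyst, a lysosomal trafficking regulator and the longest on the list at 11806 bases, at 0.98 FPKM in mM-CSF macrophages, 14.3 FPKM in sM-CSF macrophages and 28.5 FPKM in control macrophages. The tetraspanin gene Cd63, a primary granule membrane protein, was at 33.3, 16.1 and 16.9 FPKM in the same order, a difference of 0.94 from the control that was 0.07 without the length trend. Of 16 genes for the oxidase that feeds myeloperoxidase and for heme supply, 3 were lower and 0 higher in mM-CSF macrophages than in control macrophages (median -0.17). The heme synthesis genes Cpox and Fech were lower by -1.42 and -1.28, and Cybb, the catalytic oxidase subunit, by -1.23, or -0.60 without the length trend.

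Several protease inhibitor genes were higher in mM-CSF macrophages, most of them short of 2-fold without the length trend. Of 25 genes on that list 10 were tested between the mM-CSF and control libraries, with 6 higher, 0 lower and a median of 1.08. Among all genes tested 8.97% were higher. The 6 were the serine protease inhibitor genes Slpi, Serpinb6a, Serpinb1a and Serpina3f and the cysteine protease inhibitor genes Stfa1 and Cstb, which are not known as inhibitors of elastase, proteinase 3 or cathepsin G. With the trend removed the median was 0.53, and Stfa1 was the 1 of the 6 that stayed higher, beside 2.94% of all genes tested. In that setting 1 gene was lower, Cst3, at 629 FPKM in mM-CSF macrophages, 654 FPKM in sM-CSF macrophages and 740 FPKM in control macrophages. Slpi, a secreted inhibitor of elastase and cathepsin G, was at 235 FPKM in mM-CSF macrophages, 87.6 FPKM in sM-CSF macrophages and 64.5 FPKM in control macrophages, a difference of 1.85 that was 0.96 without the trend. Serpinb6a, known as an inhibitor of cathepsin G, was at 110, 46.9 and 41.5 FPKM in the mM-CSF, sM-CSF and control libraries, and Serpinb1a, an inhibitor of elastase, proteinase 3 and cathepsin G, at 46.0, 38.3 and 21.0 FPKM. Their counts were not whole, and family members may share reads. The stefin genes Stfa1, Stfa2, Stfa3 and Stfa2l1, cysteine protease inhibitors whose near-identical copies make each value uncertain, summed to 62.0 counts in mM-CSF macrophages and 0 in the sM-CSF and control libraries. Against a floor of 3 counts per library that sum was at least 21.9-fold higher in mM-CSF than in control macrophages.

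None of the tested genes on the transcription factor list was past 2-fold higher in mM-CSF macrophages. The list holds genes for PU.1, MYB, C/EBP and RUNX factors and also others, such as Klf4, Irf8, Gata1, Gata2 and Cux1. Of 15 on the list 14 were tested between the mM-CSF and control libraries, with 0 higher, 2 lower and a median of -0.28. After subtraction of the length trend 0 were higher and 3 lower, and the median turned to 0.04. Spi1, for PU.1, was at 120 FPKM in mM-CSF macrophages, 156 FPKM in sM-CSF macrophages and 194 FPKM in control macrophages. Runx1 was at 8.11, 13.9 and 14.8 FPKM, Myb at 18.5, 22.4 and 27.5 FPKM and Cebpa at 17.5, 13.9 and 12.5 FPKM in the mM-CSF, sM-CSF and control libraries. Cebpe, needed for the later secondary granules, was under the minimum of 5 FPKM, at 3.70 FPKM in mM-CSF macrophages, 0.82 FPKM in sM-CSF macrophages and 0.99 FPKM in control macrophages. Its difference between mM-CSF and control, on 39 and 11 counts, was 1.24, or 0.58 with the length trend removed. The 2 lower genes were Klf4, a monocyte factor gene, by -3.05, and Cebpb, by -1.76, and both were also lower in sM-CSF macrophages than in control macrophages, by -1.50 and -2.01.

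Markers of the cells that could carry these transcripts were read beside them. Of 13 secondary and tertiary granule genes 7 were tested, and 3 were higher and 0 lower in mM-CSF macrophages than in control macrophages (median 0.86), or 2 higher and 1 lower with the length trend removed (median 0.39). The cathelicidin gene Camp was at 22.3 FPKM in mM-CSF macrophages, 3.71 FPKM in sM-CSF macrophages and 3.08 FPKM in control macrophages, and the lipocalin gene Lcn2 at 15.2, 3.63 and 1.99 FPKM. Pglyrp1, the 1 lower with the trend removed, was at 106, 76.6 and 119 FPKM in the same order. Mmp9, not tested between mM-CSF and control, was at 2.06, 7.35 and 3.84 FPKM. Of 12 mature neutrophil genes 9 were tested, with 3 higher, 3 lower and a median of 0.02, and, once the trend was removed, 2 higher, 1 lower and a median of -0.09. S100a8 was at 122 FPKM in mM-CSF macrophages, 15.75 FPKM in sM-CSF macrophages and 10.65 FPKM in control macrophages. The 3 lower genes were Trem1, Mxd1 and Csf3r. Trem1 was at 0.27, 0.92 and 6.37 FPKM in the mM-CSF, sM-CSF and control libraries. In the same order Mxd1 was at 6.8, 18.7 and 21.7 FPKM and Csf3r at 11.8, 15.8 and 26.7 FPKM. Ly6g, which encodes the neutrophil antigen seen by GR1 antibodies, was low but also highest in mM-CSF macrophages, at 1.45 FPKM, against 0.36 FPKM in sM-CSF and 0.25 FPKM in control macrophages. These values rest on 11.26, 2.9 and 2.08 counts, and their counting intervals overlap (0.707 to 2.53, 0.0768 to 1.09 and 0.0291 to 0.868 FPKM). At 922 bases Ly6g is about as short as Elane, and the length trend was not removed from these values. Summed over each list, the secondary and tertiary granule genes stood at 230, 119.6 and 169 FPKM and the mature neutrophil genes at 443, 280.3 and 255 FPKM in the mM-CSF, sM-CSF and control libraries. Pglyrp1 made up most of the first sum in the sM-CSF and control libraries. S100a8 and S100a9 carried most of the rise of the second sum from control to mM-CSF macrophages. S100a9 was at 74.55 FPKM in mM-CSF and 13.85 FPKM in control macrophages. The part of such cells in the granule values was not tested.

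None of the tested progenitor and leukemia blast markers was past 2-fold higher in mM-CSF macrophages. Of 16 genes 8 were tested between the mM-CSF and control libraries, with 0 higher, 2 lower and a median of -0.13. The summed level of the list was 128 FPKM in mM-CSF macrophages, 187 FPKM in sM-CSF macrophages and 198 FPKM in control macrophages. The stem cell factor receptor gene Kit was at 6.02, 34.7 and 35.0 FPKM in the mM-CSF, sM-CSF and control libraries, and the cytokine receptor gene Flt3 at 6.25, 42.0 and 46.0 FPKM. Both stayed past 2-fold lower in mM-CSF macrophages with the length trend removed, at -1.62 and -2.33. Kit and Flt3 carried most of the fall in the summed level. Sox4 and Cd34 were highest in mM-CSF macrophages, at 10.15 and 6.31 FPKM, against 6.16 and 3.97 FPKM in control macrophages. Myb, Gata2 and Myc were lower in mM-CSF than in control macrophages. All of these were short of 2-fold. The leukemia-associated gene Hoxa9, under the minimum of 5 FPKM, was at 2.71 FPKM in mM-CSF macrophages, 0.93 FPKM in sM-CSF macrophages and 0.85 FPKM in control macrophages.

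For Prg2, some eosinophil genes were near 0 and others were not. Its neighbour and relative Prg3 was at 2.12 FPKM in mM-CSF macrophages, 0.84 FPKM in sM-CSF macrophages and 0.59 FPKM in control macrophages. Epx was at 0.39, 0.29 and 0.86 FPKM and the eosinophil lectin gene Siglecf at 0.96, 0.66 and 0.73 FPKM in the same order. The eotaxin receptor gene Ccr3 was at 55.9 FPKM in mM-CSF macrophages, 41.9 FPKM in sM-CSF macrophages and 35.6 FPKM in control macrophages, a difference of 0.64 between mM-CSF and control. The interleukin 5 receptor gene Il5ra was at 5.62, 9.07 and 6.61 FPKM in the mM-CSF, sM-CSF and control libraries. Of the 12 eosinophil genes 11 were listed and 3 tested (Ear2, Ccr3 and Il5ra), and 0 were higher or lower in mM-CSF macrophages than in control macrophages (median -0.20). With the length trend removed 0 were higher and 1, Ear2, was lower (median 0.13). The list summed to 197 FPKM in mM-CSF macrophages, 171 FPKM in sM-CSF macrophages and 282 FPKM in control macrophages, mostly from Ear2, which cells other than eosinophils express as well. Of 13 mast cell and basophil genes 5 were tested, with Cma1 higher, Kit lower and a median of 0.29 (0 higher, 1 lower and a median of -0.18 once length was allowed for), and the list summed to 61.9, 63.6 and 77.9 FPKM in the mM-CSF, sM-CSF and control libraries.

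Plasma cell genes and some macrophage genes were also higher in mM-CSF macrophages. Of 8 plasma cell genes 6 were higher and 0 lower than in control macrophages (median 1.65), beside 8.97% higher among all genes tested. With the length trend removed 4 were higher (median 0.99), beside 2.94% of all genes. The summed level of the plasma cell genes was 4603 FPKM in mM-CSF macrophages, 1523 FPKM in sM-CSF macrophages and 1464 FPKM in control macrophages. Of 18 macrophage identity genes 4 were higher, among them the 3 complement C1q chains, and 2 lower (median 0.33), or 7 higher and 1 lower with the trend removed (median 0.53). The 2 lower were Itgam, with the largest difference on the list at -2.65, and Mertk. Itgam was at 5.76, 19.96 and 41.33 FPKM in the mM-CSF, sM-CSF and control libraries, and Mertk at 17.75, 25.58 and 42.15 FPKM. Of 10 classical monocyte genes 1, Ly6c2, was higher and 0 lower among 9 tested (median 0.02), or 2 higher and 0 lower with the trend removed (median -0.13). The summed level was 887, 621 and 566 FPKM in the mM-CSF, sM-CSF and control libraries. Ly6c2, at 272, 107 and 70.9 FPKM in that order, and Plac8, at 393, 245 and 250 FPKM, carried this rise. F13a1 and Chil3 were also higher in mM-CSF than in control macrophages, and Ccr2, Ms4a4c, Fn1 and Gsr were lower, all short of 2-fold.

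**Figure D4:**
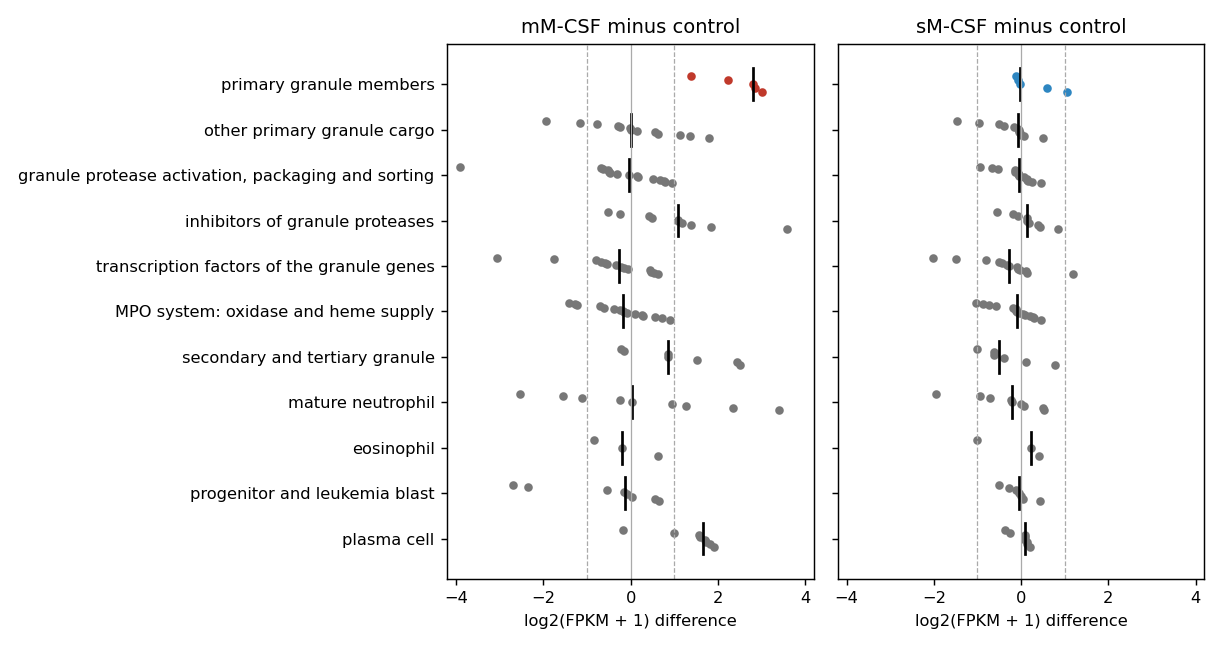
Differences of log2(FPKM + 1) for the genes tested on each list, mM-CSF minus control on the left and sM-CSF minus control on the right (1 library each, with the same control library); each point is a gene, black bars are medians and dashed lines the 2-fold bounds. In the mM-CSF comparison the 5 granule genes lie between 1.37 and 3.01, while the factor and packaging lists have medians of -0.28 and -0.05. With the length trend removed, which is not drawn, the 5 genes lie between 1.38 and 2.17 and the 2 medians are 0.04 and 0.07.

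Few genes of the same lists passed 2-fold in sM-CSF macrophages against the control. No gene of the packaging, inhibitor or plasma cell list passed 2-fold against the control in either direction, and the medians were -0.05, 0.13 and 0.09, beside 0.02 for all genes tested. The other primary granule list had 1 gene lower, Lyz2, by -1.47, and the secondary granule list had the haptoglobin gene Hp lower, by -1.02. Of the factor genes, Lef1, which acts in granulocyte development and in lymphocytes, was higher, at 27.4 FPKM in sM-CSF macrophages and 11.45 FPKM in control macrophages.

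The genes whose pair of differences from the control lay nearest to the mean of the 5 granule genes (2.45 for mM-CSF and 0.28 for sM-CSF) were Camp, Rpph1, Gpx3, Mef2b, S100a9 and Lcn2, out of 7843 genes at 10 FPKM or more in the highest library. The Euclidean distance on the log2 scale was 0.10 for Camp and 0.35 for Lcn2, the nearest and the last of the 6, and the measure rests on 3 libraries. The length trend was not removed for it, and Rpph1, S100a9, Camp and Lcn2 are short, at 325, 537, 599 and 853 bases. Rpph1 rests on few counts, 30, 6 and 4 in the mM-CSF, sM-CSF and control libraries. The calgranulin gene S100a9 was at 74.55 FPKM in mM-CSF macrophages, 13.8 FPKM in sM-CSF macrophages and 13.85 FPKM in control macrophages. Gpx3, an extracellular glutathione peroxidase gene, was at 29.65, 4.60 and 3.95 FPKM in the same order, and Mef2b, a transcription factor gene of germinal centre B cells, at 19.7, 3.20 and 3.16 FPKM.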

How the data were processed

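Macrophages of 3 groups (mM-CSF, sM-CSF, control) were profiled with 1 library each. Per the labels' protocols, libraries were made from 1 ug of total RNA for the BGIseq-500. The submitters' processing notes name Bowtie2 (2.2.5) and RSEM, without their roles. No source used here names the genome build or the annotation. Per the file headers, the authors deposited, for each NCBI gene ID, an expected count (an estimate that need not be whole), a gene length and an FPKM value scaled by them to length and library.

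Genes missing from a table were taken as 0. Symbols came from a RefSeq gene table of GRCm38.p6, which named all but 54 of the 17615 genes. Of 205 list genes 187 were in the tables. Differences are those of log2(FPKM + 1), with a minimum of 5 FPKM in the higher library. Expected counts were rounded for intervals, which are exact conditional 95% intervals for ratios and exact Poisson intervals for levels. The length trend is the median difference in 20 length bins, interpolated. A floor of 3 counts is 0.350, 0.335 and 0.330 CPM in the mM-CSF, sM-CSF and control libraries. The steps were tested on simulated data.

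The 5 genes and the 16 other lists were chosen with earlier results of these data known. Named genes are the 5, up to 4 of each list with the largest difference between mM-CSF and control at 5 FPKM or more, up to 2 neighbours on each side, and the 6 genes nearest in pattern. Other genes named from the lists (low markers, lysosomal hydrolases, the stefins beside Stfa1, Ctsc, Srgn, Myb, Myc, Cebpa, Cebpe, Irf8, Gata1, Gata2, Cux1, Hoxa7, Hoxa9, Hoxa10, Meis1, Lef1, Csf3r, Mertk, Serpinb1a, Serpina3f, Cst3, Pglyrp1, Mmp9, Plac8, Ccr2, Ms4a4c, Gsr) were chosen after their values were seen. Alternatives covered the pseudocount, minimum, size rule, scaling, measure, length trend and short genes. Python 3.11.15, pandas 2.3.3, numpy 2.4.6 and scipy 1.17.1 were used.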

Additional observations from a re-analysis of the deposited data

How the results depend on the processing

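With 1 library per group no library could be left out and no paired analysis was possible. Of 12 alternative settings 7 can move a difference, and under these none of the 15 differences of the 5 genes over the 3 comparisons changed sign. Under all 12, in both comparisons of the mM-CSF library, the number of the 5 genes past the rule was 4 or 5. The exceptions to 5 were Mpo under a 3-fold rule in both and under TPM scaling against the control. Against the control, the difference of Elane in mM-CSF macrophages ranged from 1.97 with the length trend removed to 2.90 with upper-quartile scaling, and that of Mpo from 0.92 with TPM scaling to 1.43. The 1 gene past the rule in sM-CSF macrophages against the control, Prg2, became 0 genes with a pseudocount of 5, the 3-fold rule, TPM scaling, median-of-ratios scaling or the length trend removed, and 2 genes with the 1.5-fold rule.

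Over all genes, 2358 passed the rule between mM-CSF and control, and 1334 with a pseudocount of 5, 4793 at 1.5-fold, 703 at 3-fold, 3687 with TPM scaling and 1064 with the length trend removed. Between sM-CSF and control 234 passed, and 109 with a pseudocount of 5, 400 with no minimum, 969 at 1.5-fold, 66 at 3-fold and 462 with TPM scaling. Between mM-CSF and sM-CSF 1199 passed, and 537 with a pseudocount of 5, 3559 at 1.5-fold, 272 at 3-fold, 2356 with TPM scaling and 637 with the length trend removed. The size rules and pseudocounts change these counts by construction. The cause of the other shifts was not tested. Prg2 is limited most by depth, with 88 counts in control macrophages.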
